A study of Mus musculus with 2 samples.

Results

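The 6 Dlx genes of the mouse lie in 3 pairs, Dlx1 with Dlx2, Dlx3 with Dlx4 and Dlx6 with Dlx5, and are described here in RNA from a single comparison of 2 cell pools sorted from embryos. Members were taken by position: every transcript of the deposited table whose locus on mm9 overlapped one of 3 windows around the pairs, which took 17 of 55418 transcripts. Of these, 14 lay at the 6 Dlx loci, and the other 3 shared a neighbouring locus on chromosome 2 that only touched the edge of its window. The embryos came from a cross of Grhl3-cre mice with the dual reporter mTmG, both on a C57BL/6 background, so all cells of both pools came from embryos of that cross. In this reporter, cells carry red fluorescent membranes until Cre acts, and green ones afterwards. The Cre was driven by Grhl3, a gene of the surface epithelium. Embryos of 21 to 25 somites, at embryonic day 9.5, were trimmed to the neural tube region, and RNA from 25 of them was pooled. The GFP-positive pool was labelled non-neural ectoderm, the sheet beside the closing neural tube, and the RFP-positive pool held the remaining neural tube cells. Each pool gave 1 library, so no difference below has a replicate check.

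The table names its conditions q1 and q2, and neither name matches a pool's labels. A negative fold change of q2 over q1 is read here as a higher value in condition q1. Each Dlx transcript with a finite ratio has a test statistic of the opposite sign to its fold change. The direction was not checked against the abundances. Which pool was q1 is not known from the sources used here. Abundances per condition, matched to no pool, were not used, so how low the Dlx values lie in either condition is not shown. Depth is unknown too. Of the 14 transcripts at the Dlx loci, 7 were not tested, and 3 of these were ratios against 0. The identity of the 2 pools was not checked against marker genes: transcripts carry IDs without gene symbols, and mm9 positions of marker genes were not used here.

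Dlx genes encode homeodomain transcription factors related to Distal-less, the fly gene needed for the outer parts of limbs. In vertebrates the genes of a pair are transcribed towards each other and share enhancers that lie between them. The homeodomain binds sites such as TAATTA. Dlx1 and Dlx2 are known for the development of inhibitory interneurons in the ventral forebrain and of the upper jaw. Dlx5 and Dlx6 are known for lower jaw identity in the first branchial arch, and Dlx5 also for the border between neural plate and surface ectoderm. Dlx3 is known for the placenta, the epidermis, hair and teeth.

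Locus names rest on position, order and length. The span of each locus in the deposited table was set against spans of the gene, or of the gene with its antisense RNA, in RefSeq. RefSeq was on the later build GRCm38.p6. Candidate spans used annotated ends or a listed promoter start, and only the closest was kept, so part of the closeness comes from that choice. The closest span was the same for 3 of 6 loci, and differed by at most 5 bases for the others. For the Dlx1 and Dlx6 loci it used a promoter start, that of Dlx1 and that of Dlx6os1. Dlx2, Dlx3 and Dlx5 each had a locus of their own. Dlx1 shared its locus with the antisense RNA Dlx1as, Dlx4 with Dlx4os, and Dlx6 with Dlx6os1 and Dlx6os2. Dlx6os1, also called Evf2, is a long non-coding RNA transcribed through the enhancers of the Dlx6 and Dlx5 pair. At these 3 shared loci the table does not say which transcript belongs to which gene. Whether the libraries kept strand is not given in the sources used here, so reads of a gene and its antisense partner cannot be told apart.

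Promoters are shown for the chromosome 2 pair, the only 2 of the 6 Dlx genes with a promoter entry. The promoter of Dlx6os1, whose start best matches the end of the Dlx6 locus in the table, is shown as well. Each runs from 250 bases before to 50 after the start, 5′ to 3′, from RefSeq on GRCm38.p6, at chr2:71529195-71529494 on the plus strand for Dlx1, chr2:71546705-71547004 on the minus strand for Dlx2 and chr6:6869484-6869783 on the minus strand for Dlx6os1. Capitals mark every match, on either strand, of 4 motifs, which were chosen after the sequences were seen. They are TAATTA (a homeodomain site), CACGTG (the E-box), CCAAT (the CCAAT box) and TATAAA (the TATA box).
Dlx1: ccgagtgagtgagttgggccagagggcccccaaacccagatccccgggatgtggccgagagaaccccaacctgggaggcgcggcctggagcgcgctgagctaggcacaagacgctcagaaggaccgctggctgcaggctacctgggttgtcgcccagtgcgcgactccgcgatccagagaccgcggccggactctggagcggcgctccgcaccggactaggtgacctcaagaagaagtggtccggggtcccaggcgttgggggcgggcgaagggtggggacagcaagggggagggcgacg
Dlx2: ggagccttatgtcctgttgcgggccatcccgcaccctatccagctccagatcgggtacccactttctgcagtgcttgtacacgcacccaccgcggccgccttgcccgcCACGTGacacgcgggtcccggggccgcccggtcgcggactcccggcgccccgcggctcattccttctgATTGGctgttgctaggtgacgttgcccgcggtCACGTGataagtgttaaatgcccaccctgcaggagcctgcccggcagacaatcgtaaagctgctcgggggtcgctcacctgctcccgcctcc
Dlx6os1: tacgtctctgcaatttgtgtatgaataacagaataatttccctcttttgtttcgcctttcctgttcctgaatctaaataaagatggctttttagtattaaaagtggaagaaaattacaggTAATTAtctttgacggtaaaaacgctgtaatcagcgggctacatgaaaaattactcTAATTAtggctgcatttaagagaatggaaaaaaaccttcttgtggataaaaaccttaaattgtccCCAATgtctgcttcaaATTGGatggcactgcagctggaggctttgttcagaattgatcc

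Base composition differed among the 3 sequences. G and C made up 69.3% of the Dlx1 promoter and 66.3% of that of Dlx2, but 35.7% of the Dlx6os1 promoter, against a median of 52.7% over 32851 promoters. CG dinucleotides numbered 27, 29 and 5 in the 3 sequences, against a median of 7. The other non-coding RNAs of the pairs lay near the medians, Dlx4os with 53.3% G and C and 11 CG dinucleotides, and Dlx6os2 with 51.7% and 10. A second Dlx6os1 start in the promoter table, not printed, had 35.3% G and C, 1 TAATTA and 2 matches of TATAAA. The printed Dlx6os1 sequence held TAATTA at 2 places, a motif found at least once in 5.29% of all promoters. Neither the Dlx1 nor the Dlx2 promoter held TAATTA, and other homeodomain sites were not searched for. TAATTA holds only A and T, and its share over all promoters was not matched for base composition. Lower G and C than in the printed Dlx6os1 sequence was found in 4.30% of promoters. In the Dlx2 sequence CACGTG stood at 2 places, and 7.15% of all promoters held at least 1. CCAAT occurred once in Dlx2 and at 2 places in Dlx6os1, and in 37.4% of all promoters. TATAAA was in none of the 3 printed sequences, and in 13.6% of all promoters. The marked matches do not overlap. Entries for Dlx3, Dlx4, Dlx5 and Dlx6 are missing from the promoter table.

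Every Dlx transcript with a finite ratio had the higher value in condition q1. In the authors' deposited table, all 7 tested Dlx transcripts had a negative log2 fold change of q2 over q1, against 49.5% of the 28140 finite values among all tested transcripts. Their median was -1.07, against 0.0046 over all of these, whose quartiles were -0.25 and 0.28. At least 2-fold negative were 6 of the 7, against 5.70% of all tested finite transcripts in the authors' deposited table. This share counts only the sign seen in the Dlx transcripts. Of the 6, uc008kau.1 at the Dlx1 locus, Dlx2 and Dlx3 lay close to the limit, at -1.05, -1.07 and -1.05. Another, uc008kaw.2, had an error of 6.36, larger than its fold change. None of the 7 was called different there, where calls of either sign made up 0.803% of the tested transcripts. Of these calls, 33 were negative and 203 positive. An unadjusted p-value under 0.05 was listed for 3 of the 7 in the authors' deposited table, against 3.10% of all tested. In RNA from pooled cells, fewer cells of a type and less RNA per cell cannot be told apart. Several transcripts of one locus share reads, so the 7, at 5 loci, are not 7 separate measurements.

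**Figure D1:**
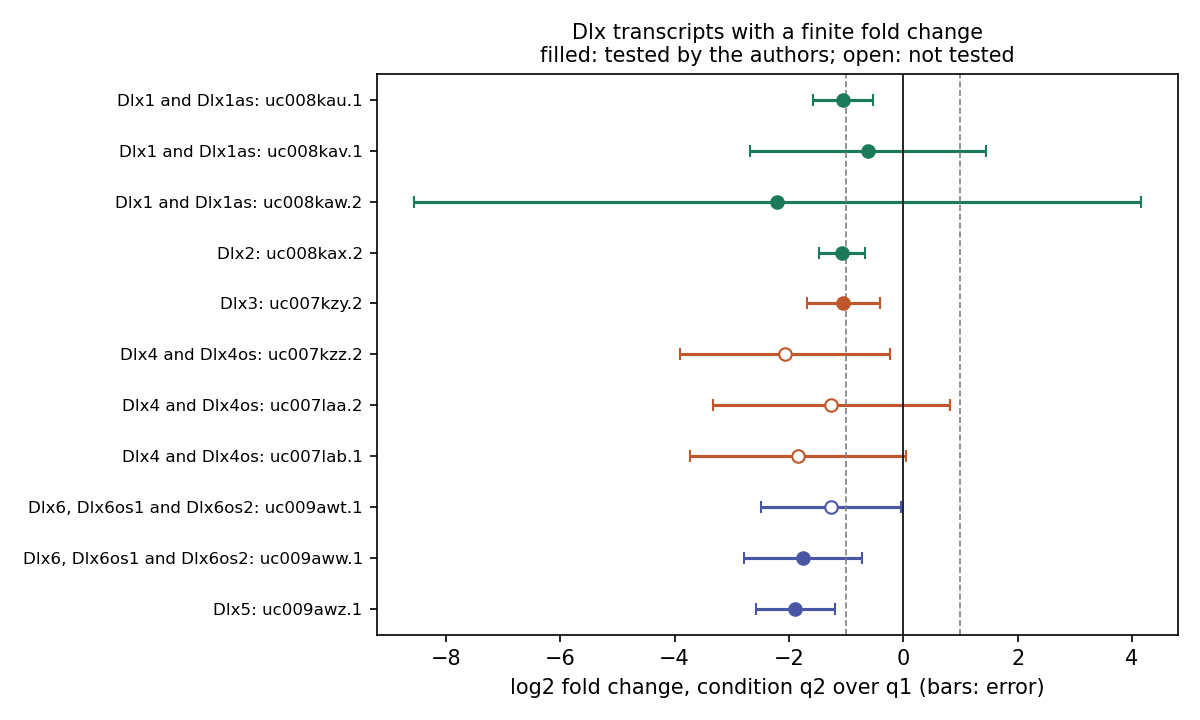
Log2 fold change of condition q2 over q1 (horizontal axis) for the 11 Dlx transcripts with a finite ratio in the authors' deposited table, with bars of 1 error to each side, filled where the authors tested the transcript and open where they did not. All 11 points lie left of 0, 10 of them at or past the dashed line of a 2-fold difference, and the bars are shortest for Dlx2.

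Dlx5 had the largest test statistic, in size, of the tested Dlx genes. The locus lies on chromosome 6 from 6827805 to 6832068 of mm9 and lists 2 transcripts. In the authors' deposited table, uc009awz.1 stood at a log2 fold change of -1.89 ± 0.693 (error), which is 3.70-fold higher in q1. The error, here and below, is the absolute fold change on the log2 scale over the absolute test statistic, and gives a 95% interval from -3.24 to -0.53. Such intervals rest on 1 library per pool and hold no spread between replicates. That transcript had the lowest p-value of the Dlx transcripts in the authors' deposited table, 0.00645, with 0.435 as its q-value. It stood at position 436 of the 29405 tested transcripts when ordered by p-value. The second Dlx5 transcript, uc009awy.1, was not tested, and the authors' deposited table gives a negative ratio against 0, which means that q2 is listed at 0.

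Dlx6, the partner of Dlx5, shares a locus of 48988 bases with its antisense RNAs, on chromosome 6 from 6770546 to 6819533, where 4 transcripts are listed. The one tested transcript there, uc009aww.1, stood at -1.75 ± 1.03 (error) in the authors' deposited table, or 3.36-fold higher in q1, with a p-value of 0.0907 and an interval from -3.77 to 0.28 that includes 0. Of the 3 others, none tested, uc009awt.1 stood at -1.26 ± 1.23 (error) in the authors' deposited table. The remaining transcripts were ratios against 0 of opposite sign, uc009awx.1 negative and uc009awu.1 positive, and uc009awu.1 is the single Dlx transcript in the authors' deposited table with a higher value in q2. Whether any of the 4 is Dlx6 itself and not Dlx6os1 or Dlx6os2 is not given by the table.

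Dlx2 was the best measured Dlx gene. It lies on chromosome 2 from 71381465 to 71384811 of mm9, with a single transcript. The authors' deposited table lists uc008kax.2 at -1.07 ± 0.408 (error) on the log2 scale, or 2.11-fold higher in q1. The interval ran from -1.87 to -0.27, so this difference has the narrowest bounds of the 7. Its p-value was 0.00846 and its q-value 0.528 in the authors' deposited table.

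At the locus of Dlx1 and Dlx1as, on chromosome 2 from 71367502 to 71375948, all 3 transcripts were tested and all were negative. The best measured of them, uc008kau.1, stood at -1.05 ± 0.526 (error) in the authors' deposited table, or 2.07-fold higher in q1, with a p-value of 0.0459 that became 1.00 after adjustment. The other two had errors larger than their fold changes in the authors' deposited table: uc008kav.1 stood at -0.62 ± 2.06 and uc008kaw.2 at -2.20 ± 6.36. The last is the largest finite tested Dlx fold change, and its interval, from -14.66 to 10.26, sets no useful bound.

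Dlx3, on chromosome 11 from 94981431 to 94986605, has a single transcript. In the authors' deposited table, uc007kzy.2 stood at -1.05 ± 0.641 (error) on the log2 scale, or 2.07-fold higher in q1. The p-value was 0.103 in the authors' deposited table, and the interval from -2.30 to 0.21 includes 0. Its partner Dlx4 shares a locus with Dlx4os, on chromosome 11 from 95001761 to 95020361, and none of the 3 transcripts there was tested. Their log2 fold changes in the authors' deposited table were -2.07 ± 1.83 (error) for uc007kzz.2, -1.26 ± 2.07 for uc007laa.2 and -1.85 ± 1.89 for uc007lab.1. The 3 values point the same way as Dlx3, with errors near or above their own size.

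The fold changes of Dlx5, Dlx2 and Dlx3 lay in the outer part of the distribution of all finite tested values. Among these values in the authors' deposited table, 1.88% were as low as Dlx5 or lower, 5.07% as low as Dlx2 and 5.28% as low as Dlx3. For uc008kav.1, the tested Dlx transcript nearest 0, the share was 10.5%. Precision sets the other side of this comparison. For 9560 tested transcripts of the authors' deposited table the error was 0.6 or less, and 0.952% of these were negative by 2-fold or more. The 2 Dlx transcripts measured that well, uc008kau.1 and Dlx2, were both past 2-fold. The 33 negative calls of the authors' deposited table had test statistics of at least 3.54 in size where finite. Dlx5 and Dlx2 stood at 2.72 and 2.63 in size, short of that range.

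**Figure D2:**
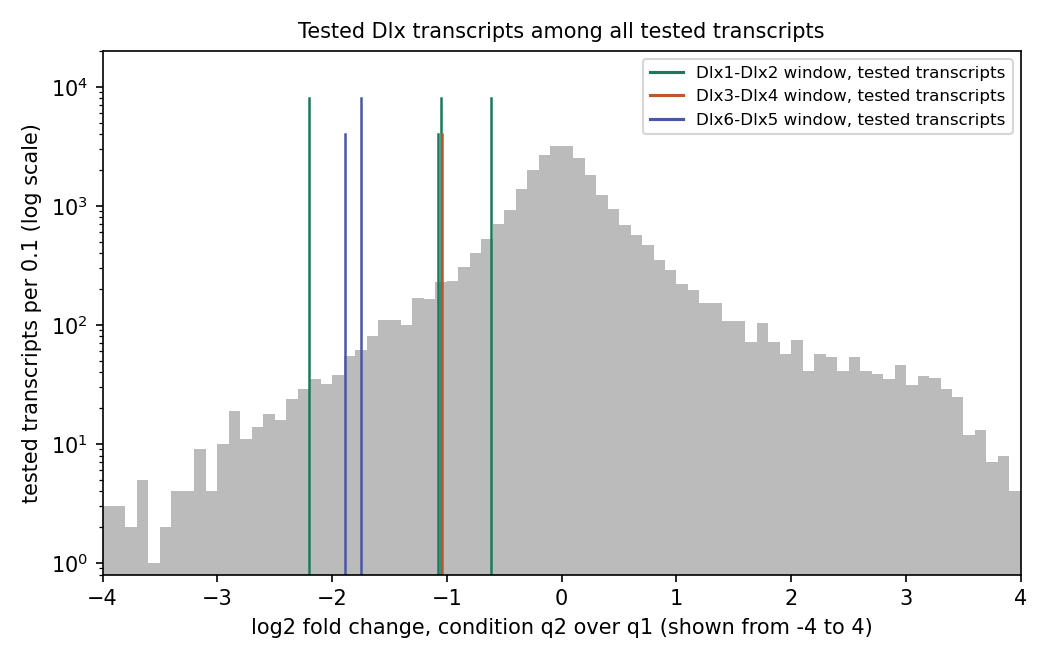
Number of tested transcripts (vertical axis, log scale) by log2 fold change of q2 over q1 (horizontal axis, shown from -4 to 4), in grey, with a coloured line for each of the 7 tested Dlx transcripts; line heights are staggered only for legibility. All 7 lines stand on the negative side, with uc008kau.1, Dlx2 and Dlx3 crowded at -1.05, -1.07 and -1.05 and the chromosome 6 pair at -1.75 and -1.89.

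Fold changes were set side by side within and across pairs. Taking the transcript with the smallest error at each locus, the locus of Dlx1 and Dlx2 differed by 0.024 log2 units with a combined error of 0.67, and the locus of Dlx6 and Dlx5 differed by 0.138 with a combined error of 1.24. Dlx3 and the Dlx4 locus, where uc007kzz.2 was not tested, differed by 1.02 with a combined error of 1.94 in the authors' deposited table. Loci of different pairs could lie as near as those of one pair: the Dlx1 locus minus Dlx3 gave -0.003 with a combined error of 0.83, and Dlx2 minus Dlx3 gave -0.027 with 0.76. Across the 5 loci with a tested transcript, 10 such differences can be formed from the authors' deposited table. The difference of 0.812 between Dlx2 and Dlx5, with a combined error of 0.80, was the 1 of the 10 that was larger than its error. With errors this wide the fold changes of the 5 loci cannot be put in order, and the small differences do not show that the genes of a pair changed alike.

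Neighbouring loci had values on both sides of 0. Among the 3 nearest loci on each side of the windows, 18 in all, 19 transcripts were tested with a finite value in the authors' deposited table. Of the 19, 8 were negative and 11 positive, against 49.5% negative over all tested finite transcripts. None was called, where calls made up 0.803% of all tested. At least 2-fold negative was 1 of the 19, against 5.70% of all tested finite transcripts. It was uc009axc.1, at -15.76 with an error as wide as 4512. Beside it, uc009axd.2 of the same locus stood at 13.54 with an error of 1905. At least 2-fold positive were 4 of the 19, uc009axd.2 among them. The share of such positive values over all tested transcripts was not computed, so this count is no contrast with the Dlx loci. Next to the Dlx3 and Dlx4 window, uc007kzv.1 stood at 1.69 ± 4.03 (error) and uc007kzu.2 at 1.12 ± 0.467 in the authors' deposited table, the latter with a p-value of 0.0161. Beside them, uc007kzt.1 stood at 1.10 ± 0.314 (error) in the authors' deposited table, where its q-value was 0.0580, the opposite sign to Dlx3. At the locus that touches the chromosome 2 window and ends 1525 bases before the Dlx1 locus, the authors' deposited table lists 0.93, 0.60 and 0.27 for uc008kar.1, uc008kas.1 and uc008kat.1, with errors of 4.75, 0.468 and 1.21. None of these neighbours was given a gene name, and whether they differ from the Dlx loci beyond error was not tested.

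**Figure D3:**
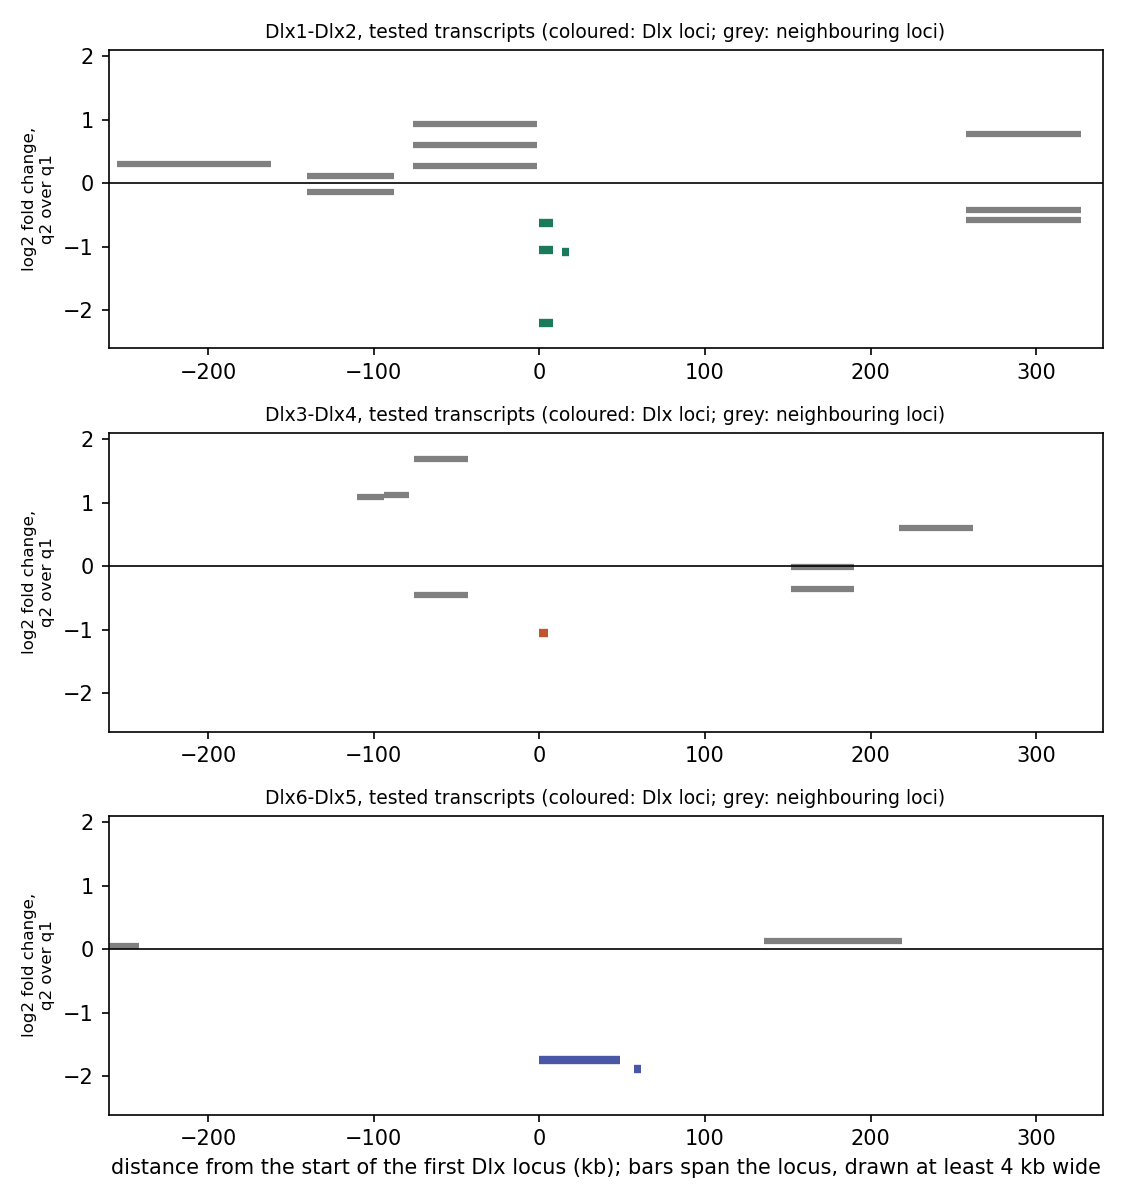
Log2 fold change of q2 over q1 (vertical axis) of tested transcripts against distance in kb from the start of the first Dlx locus of each pair (horizontal axis), with Dlx loci coloured and neighbouring loci grey. Each coloured bar lies below 0, while grey bars lie on both sides; neighbours farther away than the axis reaches, among them uc009axc.1 and uc009axd.2, are not drawn.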

How the data were processed

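RNA was measured in 2 sorted pools, with 1 library each. Reads were processed on mm9 with TopHat (1.3.2), Cufflinks (2.0.2) and Cuffdiff, all per the submitters' processing notes. The annotation is not given in the sources used here, nor is any setting. The deposited file holds 1 comparison, with a log2 fold change, a test statistic, a p-value and a q-value per transcript. The authors deposited the test statistic as a score, and the p-values and q-values are theirs. Placeholders mark ratios against 0. The deposited q-values equal a Benjamini-Hochberg adjustment over the 29405 tested transcripts to within 3.2e-06. The 2 columns of abundance, matched to no sample, were not used, so no pseudocount or filter on low values was tried.

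Starts are printed counting from 1, since 3 of 6 spans equal the RefSeq length only if the table counts starts from 0. Every transcript in the windows is named. Members and lists were chosen with earlier results of these data known. Lists of marker genes and of genes acting with Dlx factors were planned only for a table that pairs IDs with symbols, and were not run; mm9 positions of those genes were not used here. No test beyond the authors' was made, and a p-value compares 2 libraries, not 2 cell populations. The adjustment was tested on simulated data. Software was matplotlib 3.10.9, scipy 1.17.1, pandas 2.3.3 and numpy 2.4.6 under Python 3.11.15.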

Additional observations from a re-analysis of the deposited data

How the results depend on the processing

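The count of Dlx transcripts called stayed at 0 of 7 at a q-value of at most 0.01 or 0.1 and with the adjustment over every row of the table, and was 3 at an unadjusted p-value under 0.05, an alternative chosen after seeing the data. The count past 2-fold was 6 of 7, against 5.70% of all tested finite transcripts at least 2-fold negative. It was 2 of 2 with an error of at most 0.6, against 0.952% of all tested transcripts with such an error. It was 1 at 4-fold, 10 of 11 with every status counted, and 6 after centring on the median of all tested transcripts. Chosen after seeing the data, it was 3 of 3 at the loci that hold 1 gene (Dlx2, Dlx3 and Dlx5). Also chosen after seeing the data, it was 5 of 5 with an error of at most 2. With the neighbouring locus on chromosome 2 included, again chosen after seeing the data, it was 6 of 10. In each of these counts, 0 transcripts were positive past the limit. Apart from 5.70% and 0.952%, no share over all transcripts was computed, so the counts at the other settings cannot be judged against one. Centring moved each of the 7 fold changes by -0.0046 log2 units with the median over all tested transcripts and by 0.025 with that over loci with 1 transcript, and turned no sign. Of the 7, uc008kau.1, Dlx2 and Dlx3 lie close to the 2-fold limit, at -1.05, -1.07 and -1.05. No library could be left out, since each pool gave 1.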
